A study of Mus musculus with 4 samples.

Results

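Enzymes that attach ubiquitin to proteins or remove it were read by 91 spots for 68 genes on nylon cDNA arrays hybridised with RNA of cultured mouse dorsal root ganglion (DRG) neurons, of 8496 spots for 6284 genes that name a single gene. The members were chosen by name alone, as every spot whose only gene symbol in the array's annotation starts with UBE1 to UBE4, OTU, FBX or SKP, or with UBA, USP or CUL followed by a digit. No measured value entered that rule, but it was chosen with earlier results of these data known. By role, they comprised 2 spots for 2 E1 activating enzymes, 33 spots for 21 E2 conjugating enzymes, 3 spots for 2 UBE3 ligases, 2 cullins, the adaptor SKP1 and 22 spots for 18 F-box proteins. The other 28 spots were for 22 genes of the USP and OTU deubiquitinase families, grouped by name and not by known activity. A single clone read 51 of the genes, 12 genes had 2 clones, 4 had 3, and UBE2B had 4. The annotation carries human gene identifiers, so mouse RNA was read on clones named for human genes.

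The 4 arrays held 1 sample each: axons with stimulation, cell bodies with stimulation, and both compartments without it. The DRG neurons of NIH Swiss mice were taken at embryonic day 13.5 and grown for 3 weeks in chambers with separate compartments for axons and cell bodies. Stimulated cultures received 2 h of electrical stimulation through electrodes in the dish lid, and the others received none. Growth of non-neuronal cells had been held back with a drug against cell division, in all groups alike. Each array carried RNA pooled from 3 coverslips and amplified before labelling. No group had a second array, so no p-value is given and every difference below compares single pooled samples.

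Ubiquitin is a small protein that cells join to other proteins through a chain of enzymes. An E1 enzyme activates it, an E2 enzyme carries it, and an E3 ligase selects the protein that receives it; in cullin ligases a cullin scaffold holds an adaptor such as SKP1 and an F-box protein that recognises the target. Deubiquitinases cut ubiquitin off again, and in axons this balance of marking and removal is known to act on proteasomal breakdown, receptor traffic and the turnover of synaptic proteins. Some members act on relatives of ubiquitin: UBA7 activates ISG15, and UBE2F carries NEDD8.

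Each array's log10 intensities were turned into z-scores over all 9600 spots. The z ratio of a spot is its z-score on one array minus that on the other, scaled so that all such differences in a comparison have an SD of 1, and a spot was counted past the threshold at 1.4 or more in size. A z ratio compares places within each array's own distribution, so it can be positive where the raw intensity is lower. Background was the 95th percentile of 384 unnamed spots at fixed places on the membrane, 42.5 on the stimulated axon array and 21.9 on the unstimulated axon array. On both cell body arrays these spots mostly held a fill-in value of 10, which stood in for background there and measured none. Where 1 array was at background its value was replaced by that limit, giving a bound rather than a z ratio. On the cell body arrays that limit was the fill-in value. Above background there thus means only above 10, and bounds and folds there hold only if background was no higher. Folds were taken after dividing each array by its median, and a fold against a value at background is given as "at least". A mean z-score over the 4 arrays ranked spots by brightness, which on such arrays is no measure of the amount of one RNA against another.

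Over all spots the median intensity was 102.54 and 89.3 on the stimulated and unstimulated axon arrays, and 118.09 and 159.65 on the stimulated and unstimulated cell body arrays. Sensory neuron markers (8 genes, 11 spots, including STMN2, ELAVL3, TUBB3 and GAP43) were above background at 11 of 11 spots on every array, with summed intensities of 1800 and 1434 in stimulated and unstimulated axons and 2312 and 2676 in stimulated and unstimulated cell bodies. PRPH, which helps define these neurons, was not analysed here. Markers of other cells were also above background: 10 or 11 of 11 Schwann and satellite glia spots (summed 2934 to 4771), 5 to 7 of 7 fibroblast spots (33256 to 38384), 6 or 7 of 7 macrophage spots (15330 to 18974) and 1 to 3 of 3 endothelial spots (967 to 1788). A few bright spots carried the fibroblast and macrophage sums. C1QB alone read 13392 to 16465 over the arrays, S100A4 16671 to 20789 and FN1 9267.5 to 11390. Other spots of the same lists were dim, such as CD14 at 10 to 96.3 and DCN at 15.3 to 63.5. The sums therefore do not rank the cell types by amount. The part of these other cells in the values of the ubiquitin enzymes was not tested. In such samples fewer cells of a type and less RNA per cell cannot be told apart.

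The ubiquitin enzymes were read less often above background than the array as a whole. On the stimulated and unstimulated axon arrays 71 and 81 of 91 spots were above it (78.0% and 89.0%, against 88.4% and 94.6% of spots naming 1 gene). On the stimulated and unstimulated cell body arrays 84 and 88 were above it (92.3% and 96.7%, against 96.1% and 97.6%). In total 70 spots (76.9%) for 56 genes were above background on all 4 arrays, against 86.8% of spots naming 1 gene. Their median intensity was 90.4 and 68.2 in stimulated and unstimulated axons and 95.7 and 123.4 in stimulated and unstimulated cell bodies, below the medians of 107.7, 94.3, 126.6 and 169.2 over all spots naming 1 gene on the same arrays.

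Within each role group the member with the highest mean z-score over the 4 arrays was described first. UBE2V2, an E2 variant that partners UBE2N in building a signalling type of ubiquitin chain, had its brightest clone at 14860 and 11344 in stimulated and unstimulated axons and at 12471 and 13028 in stimulated and unstimulated cell bodies. FBXO8, an F-box protein known to act on the small GTPase ARF6, read 7302 and 5253 in stimulated and unstimulated axons and 7442 and 6849 in stimulated and unstimulated cell bodies. USP3, a deubiquitinase of histones, read 5033 and 4028 in stimulated and unstimulated axons and 5024 and 5302 in stimulated and unstimulated cell bodies. These are raw spot values, and none of the 3 was past the threshold in either stimulation comparison.

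Among the E1 enzymes UBA7 had a mean z-score of 1.39, with z ratios between 0.17 and 0.60 over the 4 comparisons. UBE3A, the ligase lost in Angelman syndrome, read 1487 and 1284 in stimulated and unstimulated axons and 1627 and 1620 in stimulated and unstimulated cell bodies at its brighter clone. OTUD5, a deubiquitinase of innate immune signalling, read 674 and 440 in stimulated and unstimulated axons and 1234 and 1162 in stimulated and unstimulated cell bodies. CUL4A, a cullin that works with DDB1, FBXW9 and FBXL13 led their groups with mean z-scores of -0.05, 1.90 and 0.50. All of these were above background on all 4 arrays, while SKP1, alone in its group, was not (42.26 in stimulated axons, just below background).

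In axons with stimulation, no ubiquitin enzyme was higher past the threshold above background, 2 E2 enzymes were lower, and FBXW4 was lower by a bound. Counting all 91 spots, 3 were higher (3.34% of spots naming 1 gene were) and 4 lower (5.6% were). Above background on both arrays, 0 of 71 were higher, against 1.44% of spots naming 1 gene, and 2 of 71 lower, against 3.92%. UBE2R2, an E2 that works with SKP1-cullin-F-box ligases, read 85.2 in stimulated axons against 197 in unstimulated axons, and 298 and 313 in stimulated and unstimulated cell bodies. The stimulated axon array alone was low. Its z ratio was -2.42 (2.66-fold lower), its only clone, and in cell bodies the z ratio of stimulation was 0.36.

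UBE2G2, an E2 of protein breakdown at the endoplasmic reticulum, was lower at clone 1, with 193 in stimulated axons against 314 in unstimulated axons and with 155 and 209 in stimulated and unstimulated cell bodies. Here the unstimulated axon array stood above the other 3. The z ratio of clone 1 was -1.52 (1.87-fold lower), that of clone 3 was -1.39, and that of clone 2 was -0.10, with a mean of -1.01 ± 0.78 (SD, n = 3 clones). Clones of a gene share the RNA of each array and are not replicates of the culture.

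FBXW4, an F-box protein, read 15.97 in stimulated axons, which is background, against 77.4 in unstimulated axons, and 103 and 189 in stimulated and unstimulated cell bodies. It was thus above background on 3 arrays and not on the stimulated axon array. The bound was -1.95 and the difference at least 2.09-fold. The bound for USP5, which takes apart free ubiquitin chains, was -0.87 at clone 1 (20.55 in stimulated axons, at background, against 48.2), short of the threshold, and its other clone had a z ratio of -0.51. The 3 spots counted as higher, FBXW5 clone 3, UBE3A clone 2 and CUL2, were at background on both axon arrays and have no measured difference. The member spots nearest to the threshold without passing it were UBE2G2 clone 3 at -1.39 and UBE2Z clone 1 at 1.27.

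**Figure D1:**
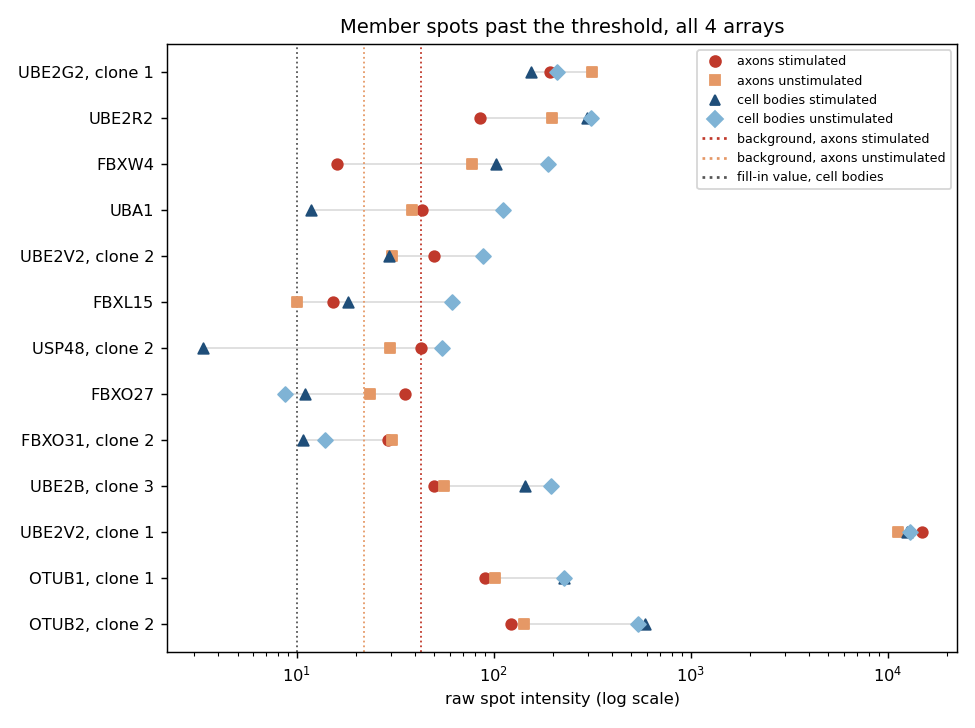
Raw spot intensity (log axis) of 13 member spots on the 4 arrays, past the threshold above background or, for FBXW4, FBXO27 and USP48 clone 2, with a bound past it. Circles and squares are stimulated and unstimulated axons, and triangles and diamonds are stimulated and unstimulated cell bodies. Dotted lines mark background on the axon arrays (42.5 and 21.9) and the fill-in value of 10 on the cell body arrays. A single array stands apart for UBE2R2, FBXW4 and USP48 clone 2, and the axon values of UBA1 lie between its cell body values.

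As a set, the ubiquitin enzymes had a median z ratio of 0.21 for stimulation of axons, against 0.03 over all spots naming 1 gene. Of the 91 member spots 53 were above 0, against 4385 of 8496 spots naming 1 gene. Under the alternatives the members' median lay between 0.09, when centred on membrane position, and 0.62, over the 29 spots brighter than the mean of their arrays. Over all spots naming 1 gene these settings gave -0.0005 and 0.14. Of the 9 alternatives counted here and below, 1 was the second deposited table, whose values are identical, so it could only repeat the main value. By role the medians were 0.20 for the E2 enzymes, 0.20 for the USP and 0.23 for the OTU deubiquitinases, 0.19 for FBXL proteins with SKP2, 0.34 for FBXO proteins and -0.24 for FBXW proteins, and of these the sign turned only for FBXW, under 4 of 9 alternatives. UBE2V2 was above 0 at 3 of 3 clones, mean 0.63 ± 0.07 (SD), in every alternative that kept all 3. UBE2Z, an E2 loaded by the E1 enzyme UBA6, had 1.27 at clone 1, and its clone 2 was at background on both arrays. A robust z-score gave the members 0.38 but also all spots naming 1 gene 0.28. The split of 3 higher and 4 lower became 1 and 4 under loess (3.37% and 5.45% of spots naming 1 gene) and 2 and 7 when centred on membrane position (3.14% and 5.52%).

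In cell bodies, stimulation likewise left no ubiquitin enzyme higher above background, and 3 lower. Over all 91 spots, 2 were higher (1.49% of spots naming 1 gene were) and 6 lower (3.39% were). Above background on both arrays the counts were 0 of 83 higher, against 0.688%, and 3 of 83 lower, against 2.25%. UBA1, the E1 enzyme that activates most of the cell's ubiquitin, read 11.84 in stimulated cell bodies against 111 in unstimulated cell bodies, and 43.4 and 38.5 in stimulated and unstimulated axons. Both axon values lay between the cell body values, and axons against cell bodies had z ratios of 1.38 with stimulation and -1.02 without. The value in stimulated cell bodies was close to the fill-in value, which measured no background. The z ratio for stimulation of cell bodies was -3.82 (6.95-fold lower), at the gene's only clone. On the stimulated cell body array 4.44% of spots naming 1 gene were at or below 11.84.

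UBE2V2 clone 2 read 29.3 in stimulated cell bodies against 88.5 in unstimulated cell bodies, with 49.6 and 30.3 in stimulated and unstimulated axons. Its z ratio was -1.51 (2.24-fold lower). The gene's brighter clones did not share this difference, at -0.35 and 0.03. FBXL15, an F-box protein known from BMP signalling, read 18.2 in stimulated cell bodies against 61.4 in unstimulated cell bodies, with a z ratio of -1.66 (2.49-fold lower), and was at background in both axon arrays (15.2 and 10). Only unstimulated cell bodies stood clear for this spot.

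USP48, a nuclear deubiquitinase, gave the largest bound among the members at background. Its clone 2 read 3.33 in stimulated cell bodies, at background, against 54.5 in unstimulated cell bodies, and 42.6 and 29.9 in stimulated and unstimulated axons. The bound was -2.60, at least 4.03-fold lower, while its other 2 clones had z ratios of 0.23 and 0.33. FBXO7, which binds a proteasome regulator and is mutated in a form of parkinsonism, had a bound of -0.91 (5.81 in stimulated cell bodies against 25.3). UBE2Q1 clone 2 at 0.07 in stimulated cell bodies against 10.93 gives no usable difference. The spots counted as higher were FBXO27 (10.94 against 8.70, bound 1.30) and CUL2, which was at background on both arrays. SKP1, the adaptor of F-box proteins, lay just short of the threshold at -1.38, with 50.1 in stimulated cell bodies against 136 in unstimulated cell bodies.

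**Figure D2:**
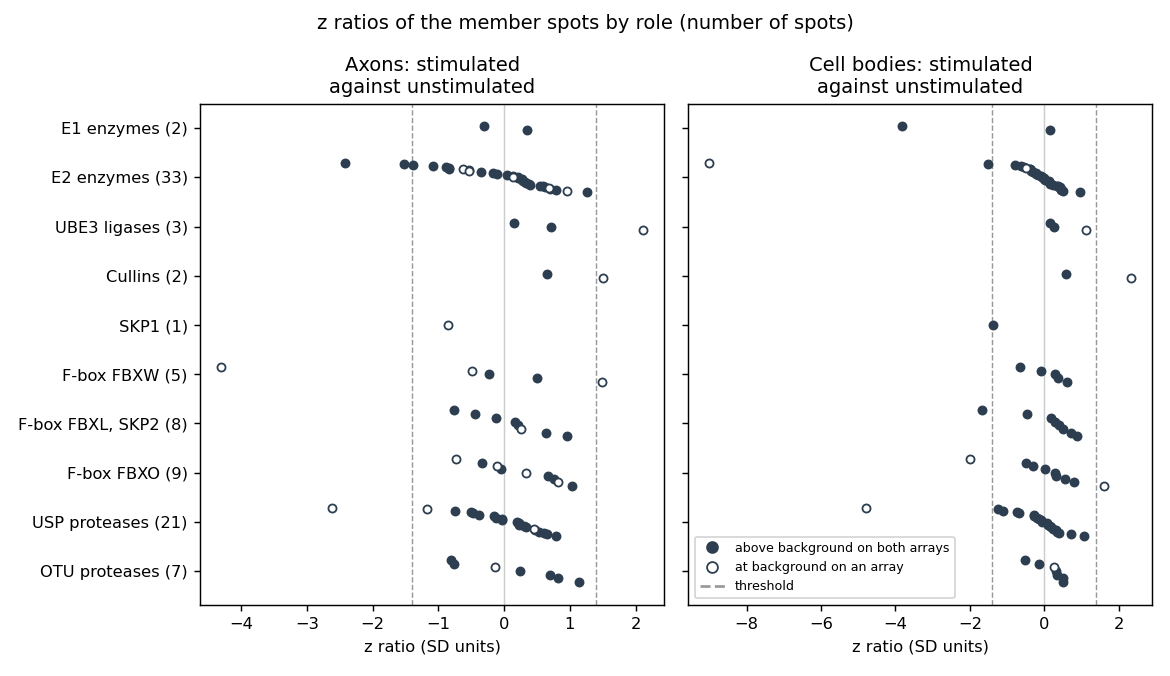
The z ratio (SD units) of each member spot for stimulated against unstimulated axons (left) and stimulated against unstimulated cell bodies (right), by role, with the number of spots in brackets. Filled points were above background on both arrays and open points were not, dashed lines mark 1.4, and beyond those lines only open points lie on the higher side, while the filled points on the lower side are UBE2R2 and UBE2G2 clone 1 in axons and UBA1, FBXL15 and UBE2V2 clone 2 in cell bodies.

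The members' median z ratio for stimulation of cell bodies was 0.12, against 0.06 over all spots naming 1 gene. Of the 91 member spots 52 were above 0, against 4710 of 8496 spots naming 1 gene. With a robust z-score both medians turned below 0 (-0.03 for the members and -0.13 for all), and the split of 2 higher and 6 lower became 3 and 4 (3.17% and 2.74% of spots naming 1 gene). By log2 ratios the order turned, with 0.10 for the members against 0.25 over all spots naming 1 gene. The E2 median was -0.06 and the USP median -0.06, and these signs turned under 2 and 3 of 9 alternatives. FBXL proteins with SKP2, FBXO proteins and OTU deubiquitinases had medians of 0.35, 0.28 and 0.33 and kept their sign in 9 of 9. UBE2N, the catalytic partner of UBE2V2, was below 0 at both clones in axons (-0.34 and -0.18) and in cell bodies (-0.31 and -0.54).

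The stimulation comparisons in axons and in cell bodies share no array, and across the 91 member spots their z ratios had a Pearson correlation of 0.06, as a description over spots of the same 4 arrays. Over all spots naming 1 gene it was 0.02. CUL2, at background, was the only member past the threshold in both, and no member was past it in opposite directions. Such spots were rare over the whole array: of 8496 spots naming 1 gene, 28 passed it upward in both and 37 downward in both. Of those past it with opposite signs, 48 had the positive z ratio in axons and 9 had it in cell bodies. Counts this small do not set the members apart. The difference between the compartments' responses was not tested for any gene, since each rests on 4 single arrays.

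Separate clones of a gene gave the only repeated reading within an array. Over 3640 pairs of clones from 1488 genes the spread of the z ratio between clones of a gene was 0.89 for stimulation of axons, 0.72 for stimulation of cell bodies, 0.77 for axons against cell bodies without stimulation and 0.85 with it. Among the 17 member genes with more than 1 clone it was 0.80, 1.58, 0.67 and 1.42 over 30 pairs, but with clones above background on both arrays only it was 0.69, 0.52, 0.70 and 0.79 over 19 to 25 pairs, against 0.62, 0.54, 0.62 and 0.71 over all genes. The pair values correlated weakly over all genes (0.07 to 0.13), as a description. The SD of the z ratio over all spots naming 1 gene was 0.93, 0.80, 0.85 and 0.87 in the same order, little above the spread between clones over all genes. Of the 17 genes, 6 had all clones above 0 in axons, 3 all below and 8 mixed, while in cell bodies 2 had all above, 1 all below and 14 mixed. UBE2B, with 4 clones, ranged between -1.08 and 0.34 in axons and between -0.36 and 0.44 in cell bodies. FBXW5, an F-box protein with 3, ranged between -0.49 and 1.49 in axons and between -0.08 and 0.61 in cell bodies, and its single clone above background on all 4 arrays had -0.24 and 0.38. UBA1 and UBE2R2 had no second clone, and the differences of UBE2G2, UBE2V2 and USP48 above were carried by some of their clones only.

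**Figure D3:**
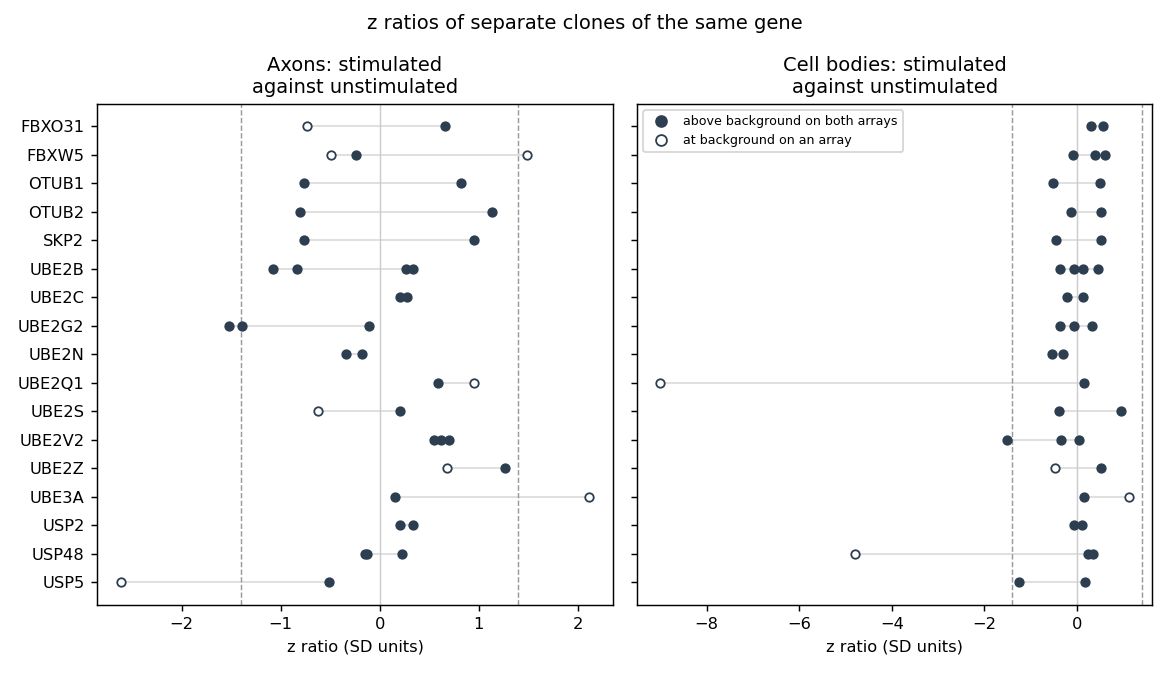
The z ratio (SD units) of each clone of the 17 member genes with more than 1 clone, for stimulated against unstimulated axons (left) and stimulated against unstimulated cell bodies (right). Filled points were above background on both arrays, open points were not, dashed lines mark 1.4, and lines join the clones of a gene: the 3 UBE2V2 clones lie together at 0.55 to 0.70 in axons, and USP48 clone 2 lies far from the gene's other 2 in cell bodies.

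Between compartments without stimulation, 1 ubiquitin enzyme above background was higher in axons and none lower. Over all 91 spots, 3 were higher in axons (3.6% of spots naming 1 gene were) and 2 lower (3.41% were). Above background on both arrays the counts were 1 of 80 higher, against 2.56%, and 0 of 80 lower, against 2.03%. FBXO31, an F-box protein that marks cyclin D for breakdown, read 30.3 at clone 2 in unstimulated axons against 13.87 in unstimulated cell bodies. On the stimulated arrays it read 28.95 in axons, at background, and 10.81 in cell bodies. The z ratio was 1.76 (3.91-fold higher), and that of clone 1 was 0.19. FBXO27, which recognises glycoproteins, had a bound of 1.84, at least 4.19-fold higher, with 23.4 in unstimulated axons against 8.70, at background, in unstimulated cell bodies. Its axon value was just above the background of 21.9, and its cell body limit was the fill-in value. All of these values lie at the low end of their arrays.

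The remaining spots past the threshold without stimulation were at background on an array. FBXL15 (10 in unstimulated axons against 61.4) and USP47, a deubiquitinase of DNA repair (15.8 against 58.6), had bounds of -1.02 and -0.95, short of the threshold, and CUL2 was at background on both. Closest below the threshold was UBE2G2 clone 1 at 1.395, with clone 3 at 1.27 and clone 2 at 0.09. These values and those of UBE2G2 for stimulation of axons share the unstimulated axon array, the one on which clones 1 and 3 were high.

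With stimulation, 1 member above background was higher in axons than in cell bodies and 4 were lower. Over all 91 spots, 3 were higher (2.92% of spots naming 1 gene were) and 6 lower (5.74% were). Above background on both arrays the counts were 1 of 70, against 1.41%, and 4 of 70, against 4.92%. OTUB2, a deubiquitinase of the OTU family, read 123 at clone 2 in stimulated axons against 584 in stimulated cell bodies, and 142 against 539 without stimulation. Both axon arrays were below both cell body arrays. The z ratio was -2.19 (4.13-fold lower) with stimulation and -1.32 without. Its clone 1 went the other way with stimulation, at 0.55, and had -0.34 without.

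UBE2B, a RAD6 homologue that ubiquitinates histones and the replication clamp, showed the same layout at clone 3: 49.5 in stimulated axons against 143 in stimulated cell bodies, and 55.7 in unstimulated axons against 195 in unstimulated cell bodies. The z ratio was -1.79 (2.52-fold lower) with stimulation and -1.28 without. All 4 UBE2B clones were below 0 in both comparisons, with means of -0.70 ± 0.75 with stimulation and -0.46 ± 0.56 without (SD, n = 4 clones), but only 1 of 4 clones was below 0 in both under the robust z-score, quantile normalisation, loess and centring on membrane position. SKP2, the F-box protein that targets the cell cycle inhibitor p27, was below 0 at both clones, with -1.14 and -0.79 with stimulation and -0.94 and -1.12 without, and so in every alternative that kept both.

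UBE2R2 was lower in stimulated axons than in stimulated cell bodies at a z ratio of -1.88 (3.03-fold), with 0.03 without stimulation. It shares the low stimulated axon array with its stimulation comparison above. OTUB1, a deubiquitinase that also inhibits UBE2N, was lower at clone 1 (90.4 in stimulated axons against 226 in stimulated cell bodies, z ratio -1.41, 2.17-fold), and its clone 2 had 0.63. UBE2V2 clone 1 was the member higher in axons, at 14860 in stimulated axons against 12471 in stimulated cell bodies, with a z ratio of 1.57 at a 1.37-fold difference. This call was lost in 4 of 9 alternatives, with 0.38 after quantile normalisation. Its other clones had 0.37 and 0.70.

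Of the spots at background on an array with stimulation, FBXW4 had a bound of -1.59 (at least 2.11-fold lower in axons) and USP48 clone 2 one of 1.58 (at least 4.91-fold higher in axons). For USP48 clone 2 the axon value of 42.63 was barely above the background of 42.5, and the cell body limit was the fill-in value. These 2 bounds repeat the low readings of FBXW4 on the stimulated axon array and of USP48 clone 2 on the stimulated cell body array. USP5 clone 1 had a bound of -0.40, and UBE2Q1 clone 2 was at background on both. No member spot was past the threshold between compartments both with and without stimulation. This was rare over the whole array too: of 8496 spots naming 1 gene, 95 were higher in both and 91 lower in both.

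**Figure D4:**
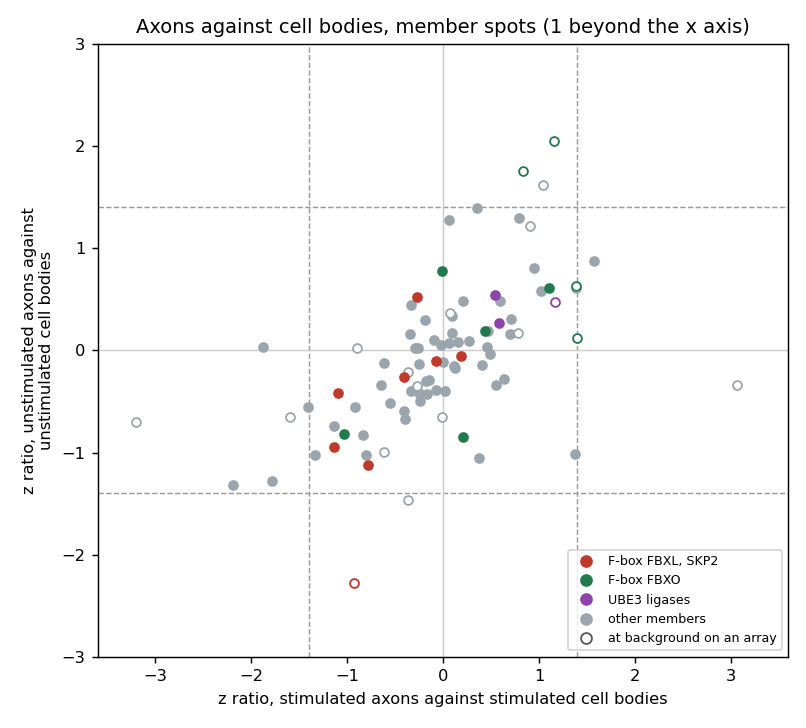
The z ratio (SD units) of each member spot for stimulated axons against stimulated cell bodies (x axis) and unstimulated axons against unstimulated cell bodies (y axis), where 1 spot lies beyond the x axis. Open points were at background on an array, dashed lines mark 1.4, and 6 of 8 spots for FBXL proteins and SKP2 (red) lie below 0 on both axes (5 of 7 above background on all 4 arrays), while of the 6 FBXO spots (green) above 0 on both only 2 were above background on all 4 arrays.

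The comparisons of axons with cell bodies with and without stimulation also share no array, and their z ratios correlated at 0.50 over the members (0.52 over all spots naming 1 gene), as a description over spots. FBXL proteins with SKP2 had medians of -0.60 with stimulation and -0.34 without, below 0 in every alternative, and 6 of 8 spots were below 0 in both, against 40.1% of spots naming 1 gene (4 to 6 of 8 in the alternatives that kept all 8). Above background on all 4 arrays it was 5 of 7, against 40.7%. FBXO proteins had medians of 0.83 and 0.61, above 0 in every alternative, and 6 of 9 spots were above 0 in both, against 32.8% (4 to 7 of 9). Of those 6 spots, FBXO7, FBXO11, FBXO27 and FBXO31 clone 2 were at background on at least 1 array, and FBXO8 and FBXO31 clone 1 were not. Above background on all 4 arrays, 2 of 5 FBXO spots were above 0 in both, against 33.3% of spots naming 1 gene, so no direction of the FBXO proteins was measured. Of the 3 spots for UBE3 ligases, UBE3A clone 2 was at background on all 4 arrays and has no measured difference. UBE3A clone 1 had 0.54 with stimulation and 0.54 without, and UBE3C had 0.58 and 0.27.

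The conjugating enzymes and the USP deubiquitinases, which make up most of the members, had medians of -0.08 and -0.25 with stimulation and -0.12 and -0.14 without. These signs turned under 5 to 8 of 9 alternatives, so no direction is given for them. Over all members the median was -0.01 with stimulation and -0.10 without, against -0.05 and -0.07 over all spots naming 1 gene. Without stimulation the split of 3 higher and 2 lower became 7 and 1 under a robust z-score (5.07% and 2.14% of spots naming 1 gene) and 5 and 7 after normexp (6.17% and 7.77%). With stimulation the split of 3 higher and 6 lower became 8 and 4 under a robust z-score (12.1% and 2.64% of spots naming 1 gene) and 14 and 7 by log2 ratios (11.1% and 7.71%), so the split moved over the whole array.

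Genes that work with these enzymes, taken from pathway lists and not members by name, were read by 150 spots for 99 genes. In stimulated against unstimulated axons 0 of the 133 above background were higher, against 1.44% of spots naming 1 gene, and 6 were lower (4.51%, against 3.92%): ATG12 (-1.68) and UFM1 (-1.46), both ubiquitin-like modifiers, COPS3 of the COP9 signalosome (-1.79), CDC20, an activator of the anaphase-promoting complex (-1.44), and the ubiquitin receptors SQSTM1 (1 clone, -1.65) and RAD23B (-1.48). With 1 array at background, ANAPC13 of the same complex and the ligase ARIH2 had bounds of 1.73 and 1.57 and a SPOP clone one of -1.68. In cell bodies 1 of 146 was higher (0.685%, against 0.688%) and 7 lower (4.79%, against 2.25%). FZR1, the other activator of the anaphase-promoting complex, was higher (1.57), and SUMO2 (-1.56), DCUN1D1, a NEDD8 ligase (-1.69), the RING ligases RNF13, RNF11, TRIM27 and TRIM28 (-1.45 to -2.16) and UFD1, a partner of the segregase p97 (-1.89), were lower. The ligase HUWE1 had a bound of 2.86, and another SQSTM1 clone one of -2.90. The COP9 signalosome, which removes NEDD8 from cullins, had a median of -0.16 over 12 spots for stimulation of axons and of -0.22 for stimulation of cell bodies.

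Between compartments without stimulation SPOP, a cullin adaptor (1 clone, 1.63), and RAD23B (2.03) were higher in axons, and UBB, a polyubiquitin gene (56.1 in axons against 299.95 in cell bodies, -1.92), SUMO2 (-1.57) and RNF126 (-1.53) were lower (2 higher and 3 lower of 140, 1.43% and 2.14%). Over all spots naming 1 gene the shares above background were 2.56% higher and 2.03% lower. RBX1, ARIH2 and ANAPC13 had bounds of -1.77, -2.03 and -1.80. With stimulation ELOC, an adaptor of cullin ligases (1.54), and BIRC2 (1.41) were higher, and COPS3 (-2.38), RNF167 (-2.05), UBXN6 (-1.68), another SPOP clone (-1.49), PIAS2 (-1.49) and UFM1 (-1.46) were lower (2 higher and 6 lower of 136, 1.47% and 4.41%). The shares with stimulation over all spots naming 1 gene were 1.41% higher and 4.92% lower. Deubiquitinases of other families (9 genes, 11 spots) had 0 spots past the threshold in any of the 4 comparisons. Over all spots naming 1 gene, 1.49% to 3.6% were higher and 3.39% to 5.74% lower, depending on the comparison. These shares are too small for 0 of 11 to set these families apart.

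Some member spots stood beside much brighter ones. Only the spots before and after in the numbering were taken as neighbours. An adjacent spot more than 5 times as bright on all 4 arrays was present for 40 of 91 members (44.0%), against 28.4% of spots naming 1 gene. FBXW4 lay next to ROMO1, which read 12412 and 9710 in stimulated and unstimulated axons and 10878 and 11863 in stimulated and unstimulated cell bodies, and OTUB2 clone 2, UBE2B clone 3, UBE2V2 clone 2, FBXL15, FBXO31 clone 2 and USP48 clone 2 also had such a neighbour. UBA1, UBE2R2 and UBE2G2 clone 1 had none before or after them, and spots in neighbouring rows were not counted. The part of neighbouring spots in these values was not tested. Close relatives such as UBE2A and UBE2B or UBE2V1 and UBE2V2 can bind each other's clones, and their readings cannot be told apart here.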

How the data were processed

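RNA of 4 samples, stimulated and unstimulated DRG axons and cell bodies, was amplified, labelled with radioactive nucleotide and hybridised to nylon cDNA arrays that were read by phosphor imaging. The authors deposited 1 raw intensity per spot for each array in 2 tables with identical values (0 differed), with no background or error column; the imaging software's background handling was not given in the sources read. Genes were taken from the platform annotation: 8496 spots name 1 gene, 21 several and 1083 none here. The deposited intensities were taken to log10 and z-scored per array, and z ratios at or beyond 1.4 were counted, after the study's methods, with Python 3.11.15, numpy 2.4.6 and pandas 2.3.3. Alternatives used R 4.3.3 and limma 3.58.1 (quantile, loess with span 0.3, normexp with offset 50). With 1 array per group no test was made, and precision is limited by their number; an additive fit of stimulation and compartment would leave 1 residual degree of freedom, set by the very difference between compartments, and was not made. Named were spots past the threshold above background (up to 8 per direction), genes with 3 or more clones and the leading member of each role group; spots at background were given as counts or bounds. The members and gene lists were chosen with earlier results of these data known. The scripts were tested on simulated data.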

Additional observations from a re-analysis of the deposited data

How the results depend on the processing

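Each group was 1 array and its values measure no spread between cultures, so a count or median that kept its value under another scaling is still 1 reading. No paired analysis was made: each group holds a single array, no replicate numbers pair arrays, and pairing over compartments would take the difference between their responses as error. Spots at background bound a difference and cannot measure it, which touched 21 of 91 members on at least 1 array. Of 91 alternative values for the 11 calls above background (on 10 spots), 71 were past it and 0 changed sign. The counts in this paragraph include the second deposited table, which is identical and so repeats the main value for every call. UBE2R2 in axons, UBA1 in cell bodies, and OTUB2 clone 2 and UBE2B clone 3 between stimulated compartments were past it in every alternative run, whereas UBE2V2 clone 2 in cell bodies and OTUB1 clone 1 were past it in 4 of 8 and UBE2V2 clone 1 in 5 of 9. Of 144 values for the 18 calls at background (on 11 spots), 118 were past it, and UBE2Q1 clone 2 in cell bodies turned to 0.34 after normexp and 1.27 with values below 10 set to 10. The cause of the shifts below was not tested.

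Counted only above background on both arrays, an alternative chosen after seeing the data, the members higher were 0 for stimulation of axons, 0 for stimulation of cell bodies, 1 for axons against cell bodies without stimulation and 1 with it, and those lower were 2, 3, 0 and 4. The shares of spots naming 1 gene were 1.44%, 0.688%, 2.56% and 1.41% higher in that order. Lower shares were 3.92%, 2.25%, 2.03% and 4.92%. In the rest of this paragraph values of the stimulation comparisons in axons and in cell bodies come first, then axons against cell bodies, unstimulated before stimulated, and the values not given moved less. Medians were 0.38, -0.0271, 0.15 and 0.34 for the robust z-score (over all spots naming 1 gene 0.28, -0.13, 0.12 and 0.29). They were 0.62, 0.35, 0.21 and 0.55 over spots above the array mean (over all such spots naming 1 gene 0.14, 0.0761, 0.0562 and 0.19). Centring on membrane position gave 0.0898 and 0.0435 for stimulation of axons and cell bodies, and normexp gave 0.23 for cell bodies. Over all spots naming 1 gene these were -0.0005, 0.0022 and 0.0363. Between compartments, without stimulation first, loess gave 0.0481 and 0.12, log2 ratios 0.16 and 0.21, quantile normalisation 0.0823 and 0.23, and normexp 0.0341 and 0.27, and values below 10 set to 10 gave 0.11 with stimulation. In the same order all spots naming 1 gene had 0.0159 and -0.0063, 0.11 and 0.0528, 0.0196 and 0.0771, -0.0557 and 0.12, and 0.0158.

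For members higher, with the share of all spots naming 1 gene under the same setting in brackets, loess gave 1 (3.37%) and 1 (1.34%) for stimulation of axons and cell bodies, and log2 ratios past 1 gave 1 (0.953%) for cell bodies and 8 (7.76%) and 14 (11.1%) between compartments. Normexp gave 6 (5.45%) for cell bodies and 5 (6.17%) between unstimulated compartments, and the robust z-score 7 (5.07%) and 8 (12.1%) between compartments. Membrane position gave 6 (4.44%) and 7 (3.85%) there, and values below 10 set to 10 gave 5 (5.3%), 4 (4.52%), 6 (5.94%) and 8 (5.23%). Spots above the array mean gave 0 (4.4%) for cell bodies and 5 (3.14%) between stimulated compartments, and a threshold of 2 gave 1 (1.32%), 1 (0.812%) and 1 (1.48%) in the first 3 comparisons. For members lower, membrane position gave 7 (5.52%) in axons, spots above the array mean 1 (8.21%), 3 (5.59%) and 2 (9.75%) in axons, cell bodies and between stimulated compartments, and a threshold of 2 gave 1 (1.24%) and 2 (2.04%) between compartments. Between unstimulated compartments normexp gave 7 (7.77%), the robust z-score 1 (2.14%) and values below 10 set to 10 gave 5 (6.65%).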
